A study of Mus musculus with 20 samples.

Results

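The potassium channel genes of the mouse hippocampus were taken as the protein-coding genes whose symbol begins with Kcn, leaving out the Kcnip calcium sensors. Of 47729 gene identifiers in the count table, 90 met this description, and 76 of them had 10 or more counts in at least 5 of the 20 libraries and are described here. They fall into 20 families by symbol stem, with 12 members in Kcnj, 10 in Kcnk, 8 in Kcnh, 6 in Kcna, 5 in Kcnq and 4 each in Kcnc and Kcng. The members just inside the count threshold were Kcne3, which reached 10 counts in 5 libraries, Kcnk5 in 9, Kcnj5 in 10 and Kcnq1 in 12 libraries. Just outside it were Kcne2 with 4 libraries, Kcnj13 with 3 and Kcnn4 with 2 libraries.

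The RNA came from the hippocampus of male C57BL/6 mice, 1 animal per library, in 4 groups of 5 libraries. The 24mEE mice were 24 months old and had been moved late in life from standard cages to an enriched environment, a larger cage with running wheels, climbing platforms, plastic tubes, tunnels and houses, while the 24mSC mice of the same age stayed in standard cages. The 5mEE and 5mSC mice were 5 months old and lived in an enriched and a standard cage. The study's methods describe enrichment of aged mice only, so the length of enrichment of the 5mEE mice is not known here. No transgene or drug was used in any group.

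Potassium channels let potassium ions leave the cell along their gradient and thereby set the resting potential, end the action potential and limit repetitive firing. Voltage-gated channels are tetramers of Kcna, Kcnb, Kcnc, Kcnd, Kcnq or Kcnh subunits, which may assemble with electrically silent Kcnf, Kcng, Kcns and Kcnv subunits and with Kcnab or Kcne accessory subunits. Inward rectifiers (Kcnj) and tandem-pore channels (Kcnk) carry resting and G protein-gated currents in neurons and glia, and calcium- or sodium-activated channels (Kcnma, Kcnn, Kcnt) follow spikes with an outward current.

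Library totals lay between 10.96 and 34.1 M counts, and the 76 members together took 0.510 to 0.566% of the counts in 18 libraries. The other 2 libraries were both 5mSC. Replicate 1 had 0.465% and replicate 3 had 0.285% of its counts in the members, and replicate 3 also had 26.8% of its counts in mitochondrial ribosomal RNA, against 0.883 to 1.82% in the other 19 libraries. Relative to the mean of 5mSC replicates 2, 4 and 5, the median member was 0.05 lower on the log2 scale in replicate 1 and 0.56 lower in replicate 3. Medians over the members in comparisons with 5mSC are therefore given with and without these libraries. Counts at an unadjusted p under 0.05 are given in the same way, except in the interaction. Dentate gyrus, CA1, CA2 and CA3 marker genes had counts in every library, and none of the genes in these lists was at 0 anywhere.

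**Figure D1:**
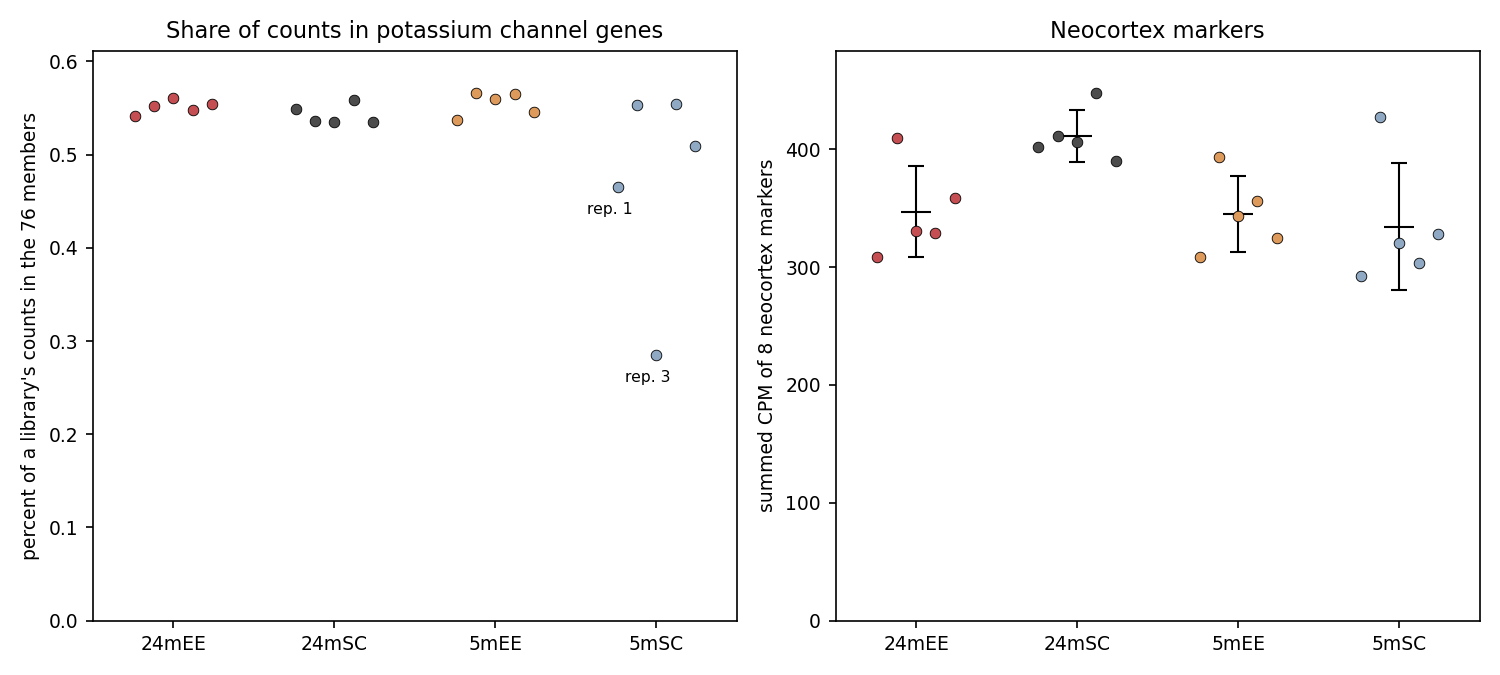
Share of each library's counts in the 76 potassium channel genes (left, percent) and summed level of 8 neocortex marker genes (right, CPM). Points are libraries and bars on the right are the group mean with its SD; 5mSC replicates 1 and 3 sit at 0.465 and 0.285%, below the other 18 libraries, and the 24mSC libraries hold 390 to 448 CPM of neocortex markers, against 309 to 409 CPM in 24mEE.

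Levels are given as CPM, each library's counts divided by its TMM-scaled total in M, and levels of different genes are compared only after division by exon length, as CPM per kilobase. On that scale 22 members had a mean of 10 or more, 39 lay between 1 and 10, and 15 were below 1. The highest was Kcnab2, a cytoplasmic beta subunit that binds Kcna channels, at 162 CPM per kilobase, and the 3 Kcnab genes together held 23.7% of the summed level of all members. Kcnj10, the astrocytic channel that clears extracellular potassium, stood at 41.1 CPM per kilobase. Other abundant members were Kcnk1, a tandem-pore leak channel, at 36.0, Kcnj4, an inward rectifier of neurons, at 31.5, and Kcnd2, the main A-type subunit of pyramidal cell dendrites, at 29.9 CPM per kilobase. Kcnj5, a G protein-gated subunit best known from the heart atrium, was lowest at 0.08 CPM per kilobase.

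**Figure D2:**
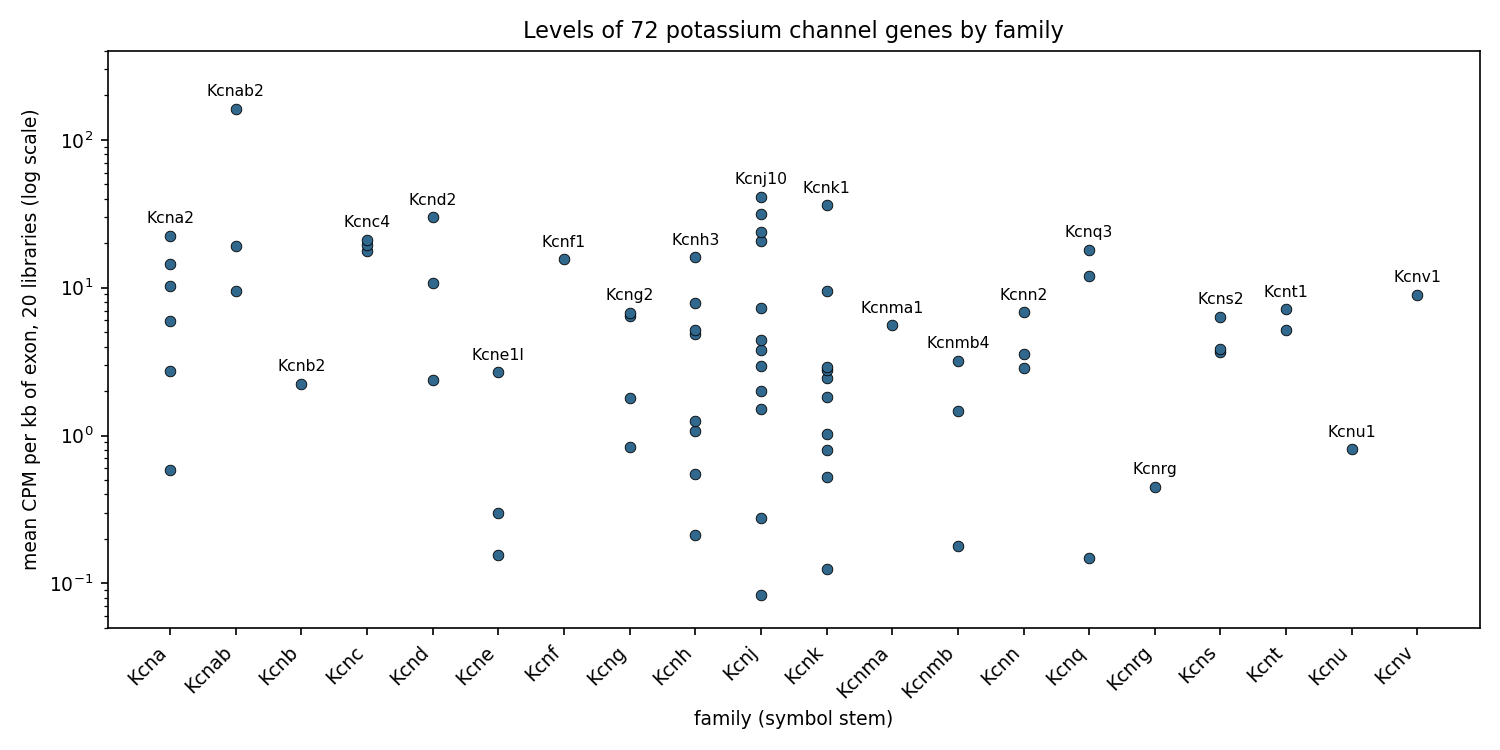
Mean level of 72 of the 76 members over the 20 libraries (CPM per kilobase of exon, log axis) by family, with the highest of those shown named in each family. Points are genes; Kcnab2 stands at 162, and the 3 Kcnc members shown lie close together between 17.7 and 21.2 CPM per kilobase, while the Kcnj and Kcnk members span more than 2 powers of 10.

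Families differed in how far their members lay apart. Kcnc2, Kcnc1 and Kcnc4, subunits of fast-spiking cells, lay close together at 17.7, 19.4 and 21.2 CPM per kilobase. The 12 Kcnj members ranged between 0.08 (Kcnj5) and 41.1 (Kcnj10), with the G protein-gated subunits Kcnj3 at 23.6, Kcnj9 at 20.8 and Kcnj6 at 4.42 CPM per kilobase in between. Among the other voltage-gated alpha subunits, Kcna2 stood at 22.4 and Kcnq3, a subunit of the muscarine-sensitive M current, at 18 CPM per kilobase, and Kcnq3 and Kcnc2 differed by less than the spread between libraries, with coefficients of variation of 9.30 and 8.87%. The highest silent subunits were Kcnf1 (15.6), Kcnv1 (8.92), Kcng2 (6.79), Kcng1 (6.40) and Kcns2 (6.38), and the large-conductance calcium-activated channel Kcnma1 stood at 5.58 CPM per kilobase. Over the 18 libraries without 5mSC replicates 1 and 3, the median coefficient of variation of the members was 14.1%, and 20 members varied by 10% or less, the least variable being Kcnh3, a Kcnh subunit of the forebrain, at 6.29% and Kcnj11, the pore of ATP-sensitive channels, at 6.69%.

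Some members share sequence or position with other genes. The library kit does not mark strand, so reads from a gene and an overlapping antisense gene cannot be told apart. Of the exon bases of Kcna6, 39.6% overlap an antisense gene, as do 31.5% of Kcnmb4 and 31.1% of Kcnj3, and 13.2% of Kcnk4 overlap Catsperz on the same strand. Of the 50-base stretches of Kcnj14, 30.8% also occur in other genes, so its counts are uncertain. No exon of another gene overlaps those of Kcnj12, Kcnc4, Kcns2, Kcnn3, Kcnt1, Kcnh6 or Kcnj16.

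The first comparison asked how potassium channel genes differ in aged mice after enrichment, 24mEE against 24mSC. The member with the smallest p was Kcnj12, an inward rectifier that holds the resting potential near the potassium equilibrium, which was lower in every 24mEE library than in any 24mSC library. Kcnc4, a subunit of fast A-type current, and Kcnn3, a small-conductance calcium-activated channel, were also lower without overlap of the groups, and Kcns2, a silent partner of Kcnb channels, and Kcnab1, a beta subunit that speeds inactivation of Kcna channels, were higher without overlap. These 5 of 75 tested members compare with 573 of 16692 tested genes (3.43%) whose groups do not overlap (1.5% higher and 1.93% lower in 24mEE). None of the 75 passed an adjusted p of 0.05 by edgeR's quasi-likelihood test on all 20 libraries with Benjamini-Hochberg adjustment, and neither did any of the 16692 genes (0% called). At an unadjusted p under 0.05 there were 14 members in this fit, 3 higher and 11 lower, against 6.21% of all genes, 2.22% higher and 3.99% lower. The balance of directions depended on the fit. Without 5mSC replicates 1 and 3 there were 12 higher and 14 lower, against 1089 and 1243 of 16947 genes. The fit of the 2 groups alone had 12 higher and 12 lower of 72 tested, against 1093 and 1264 of 16050 genes. Voom with sample quality weights had 11 higher and 15 lower at that p, against 1149 and 1539 of 16692 genes. It called 6 members, among 379 genes (2.27%). The median log2 fold change was -0.05 over members and -0.0017 over all genes.

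Kcnj12 had 3.62, 5.33, 4.71, 4.21 and 4.58 CPM in the 24mEE libraries, against 8.36, 8.32, 7.20, 7.78 and 6.81 CPM in the 24mSC libraries. The highest 24mEE library lay below the lowest 24mSC library. The log2 fold change was -0.78 ± 0.18 (SE), with an unadjusted p of 0.00028 and an adjusted p of 0.257 by edgeR on 20 libraries. Fitting only the 10 libraries of the 2 groups gave -0.77 with an adjusted p of 0.0191, among 187 called genes (1.17%), and DESeq2 gave an adjusted p of 0.0194, among 31 called genes (0.186%). The gene (ENSMUSG00000042529) lies at chr11:61022564-61071131 on the plus strand of GRCm38.

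Kcnc4 had 56.3, 84.6, 62.4, 72.5 and 66.6 CPM in 24mEE, against 102, 85.6, 94.7, 93.7 and 99.8 CPM in 24mSC. The groups did not overlap, though replicate 2 of 24mEE lay just below replicate 2 of 24mSC. The log2 fold change was -0.48 ± 0.14 (SE; adjusted p = 0.367 by edgeR on 20 libraries, 0.0316 in the fit of these 2 groups alone). Kcnc4 (ENSMUSG00000027895) lies at chr3:107438303-107459552 on the minus strand. Kcnn3 had 21.7, 24.9, 26.9, 27.2 and 29.5 CPM in 24mEE, against 32.4, 32.3, 33.0, 31.4 and 43.8 CPM in 24mSC. The groups did not overlap, and replicate 5 stood above the other 24mSC libraries. Its log2 fold change was -0.41 ± 0.15 (SE; adjusted p = 0.543, and 0.0696 in the fit of these 2 groups alone).

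Kcns2 had 42.2, 35.9, 43.0, 44.7 and 42.9 CPM in 24mEE, against 33.0, 30.2, 30.6, 33.9 and 31.9 CPM in 24mSC. Replicate 2 of 24mEE was the lowest of its group and still above every 24mSC library. The log2 fold change was 0.39 ± 0.15 (SE), and the adjusted p was 0.632 by edgeR on 20 libraries, 0.0251 in the fit of these 2 groups and 0.0453 in the fit of 18 libraries without 5mSC replicates 1 and 3, where 10 of 16947 genes were called (0.059%). Kcns2 (ENSMUSG00000050963) lies at chr15:34837355-34843407 on the plus strand. Kcnab1 had 184, 177, 189.6, 172 and 174 CPM in 24mEE, against 145, 169, 156, 162 and 129 CPM in 24mSC. Its log2 fold change was 0.24 ± 0.12 (SE), with an unadjusted p of 0.058 by edgeR on 20 libraries and under 0.05 in the fit of 18.

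**Figure D3:**
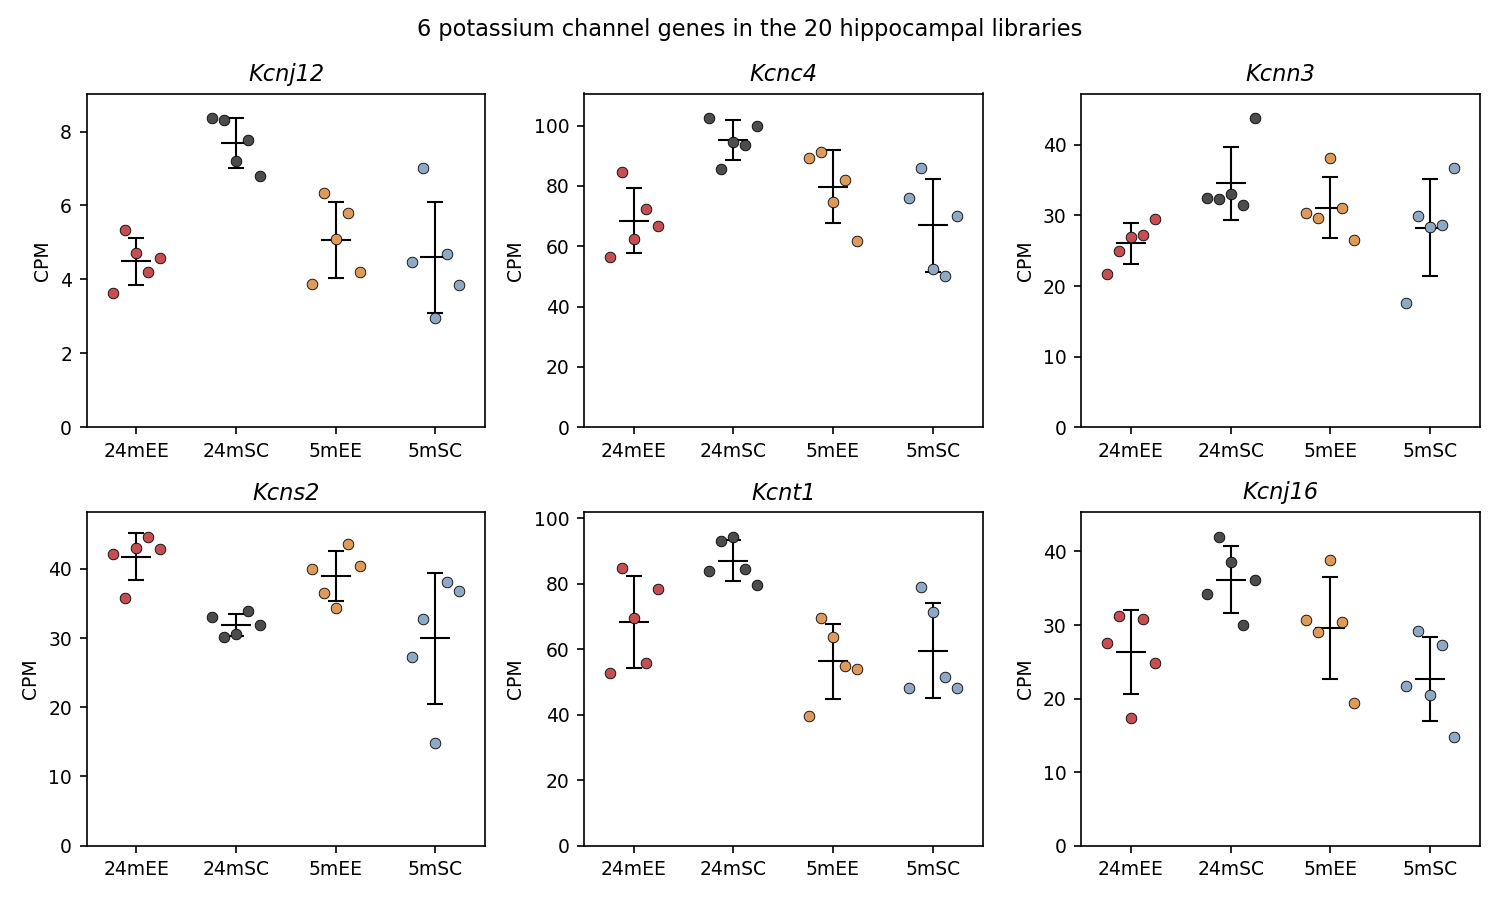
CPM of Kcnj12, Kcnc4, Kcnn3, Kcns2, Kcnt1 and Kcnj16 in each of the 20 libraries. Points are libraries in replicate order and bars the group mean with its SD (n = 5); for Kcnj12 the 24mSC libraries sit at 6.81 to 8.36 CPM, above the 24mEE libraries at 3.62 to 5.33 CPM, while 5mEE and 5mSC range over 2.96 to 7.01 CPM.

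Of the 12 Kcnj members 10 had a negative log2 fold change in 24mEE against 24mSC in the edgeR fit of 20 libraries. There, 5 of them were at an unadjusted p under 0.05 (Kcnj12, Kcnj5, Kcnj16, Kcnj9 and Kcnj8), and none of the positive ones was. In the fit of 18 libraries without 5mSC replicates 1 and 3, 6 negative members and the 2 positive ones were at that p. Kcnj16, the partner of Kcnj10 in glial channels, had 27.5, 31.2, 17.4, 30.8 and 24.8 CPM in 24mEE, against 34.3, 42.0, 38.6, 30.0 and 36.1 CPM in 24mSC (log2 fold change -0.46 ± 0.18), with overlap through 24mSC replicate 4. Kcnj9, a G protein-gated subunit, had 78.6, 109, 77.1, 78.3 and 77.6 CPM in 24mEE, against 122, 97.8, 103, 106 and 102 CPM in 24mSC (-0.34 ± 0.14), and only replicate 2 of 24mEE reached the 24mSC range. Of the further G protein-gated subunits, Kcnj6 with 0.41 ± 0.20 and Kcnj3 with 0.15 ± 0.08 had positive values. Neither was at an unadjusted p under 0.05 with 20 libraries, and both were with 18. Kcnj8, the ATP-sensitive channel of pericytes and smooth muscle, averaged 3.33 ± 0.41 CPM in 24mEE and 4.30 ± 1.12 CPM in 24mSC (SD, n = 5 each), and its highest value, 6.22 CPM, was in 24mSC replicate 1, the library with the largest sum of endothelial and pericyte markers (577 CPM, against 361 to 377 CPM in the other 24mSC libraries).

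Kcnj5 had the largest negative estimate, -1.17 ± 0.36 on the log2 scale (adjusted p = 0.413), from very few reads. It had 9, 8, 4, 3 and 2 counts in 24mEE, against 10, 7, 20, 4 and 12 counts in 24mSC, so that 2 libraries of 24mEE were at or under a floor of 3 counts. Among the voltage-gated subunits, Kcnq3 had a positive value of 0.20 ± 0.13, and Kcnd2 averaged 164 ± 8.65 CPM in 24mEE and 138 ± 10.97 CPM in 24mSC (0.24 ± 0.10; SD, n = 5 each). For Kcnd2 the groups overlapped. Kcna6 (-0.27), Kcnt1 (-0.35) and Kcnh6 (-0.44), also at an unadjusted p under 0.05, were lower in 24mEE with overlap.

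**Figure D4:**
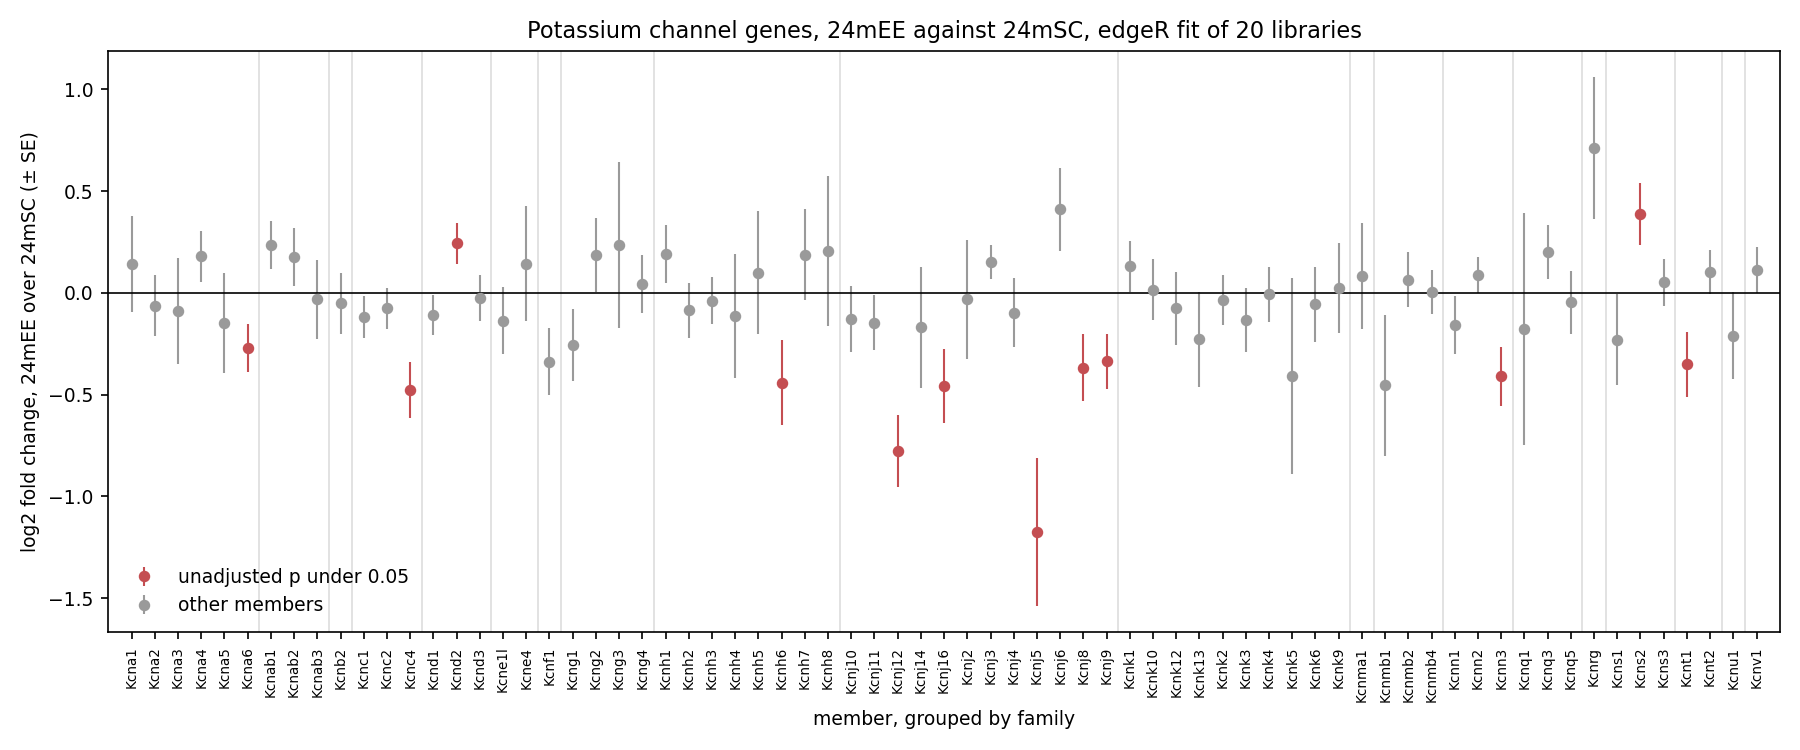
Log2 fold change of 71 of the 75 tested members, 24mEE over 24mSC, with its standard error, from the edgeR fit of 20 libraries. Red points are the 12 members shown at an unadjusted p under 0.05, 2 above and 10 below 0, of which 5 are Kcnj genes; Kcnj5, at -1.17, has the widest error among them.

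Markers of some neighbouring regions differed between the same groups. Thalamus and habenula markers summed to 160 to 177 CPM in 24mEE, against 179 to 194 CPM in 24mSC, with 5 of 8 lower. Striatum markers overlapped, with 194 to 212 CPM in 24mEE, against 192 to 206 CPM in 24mSC. Interneuron markers also overlapped, with 1113 to 1273 CPM in 24mEE, against 1193 to 1295 CPM in 24mSC, and 10 of 12 were lower. No fit had these lists as a covariate. The summed level of the neocortex markers was 309, 409, 330, 329 and 358 CPM in 24mEE, against 402, 411, 406, 448 and 390 CPM in 24mSC, 7 of the 8 marker genes had a negative log2 fold change, with a median of -0.30, and none was at 0 in any library. Replicate 2 of 24mEE, the highest of its group in these markers, was also the highest of its group in Kcnj12, Kcnc4, Kcnj9, Kcnj16, Kcnt1 and Kcnh6, and the lowest in Kcns2. With the mean log2 level of the neocortex markers as a covariate, the log2 fold change was -0.35 for Kcnj12, -0.18 for Kcnc4 and 0.0026 for Kcnj9. It was -0.41 for Kcnn3 and 0.45 for Kcns2. None of the 75 members and none of the 16692 genes passed in that fit, as in the fit without the covariate. Dentate gyrus markers went the other way, with 12 of 12 higher in 24mEE and sums of 760 to 941 CPM in 24mEE, against 454 to 841 CPM in 24mSC. With the dentate gyrus markers as a covariate the log2 fold change was -0.68 for Kcnj12, -0.52 for Kcnc4, -0.48 for Kcnn3 and 0.28 for Kcns2. Of 7 ventral hippocampus markers none was higher in 24mEE, with a median log2 fold change of -0.52 and sums of 101 to 117 CPM in 24mEE, against 109 to 214 CPM in 24mSC, and their highest 24mSC library was replicate 5, also the highest in Kcnn3. Their part in these results was not tested. In bulk tissue, fewer cells of a type and less RNA per cell cannot be told apart.

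Stretches before a start of Kcnj12 and Kcnc4, the members with the smallest p in this comparison, are shown for reference. They are the 250 bases before the start that RefSeq gives on GRCm38.p6, both inside the gene spans given above, 5′ to 3′ on the gene's own strand, at chr11:61065554-61065803 (plus) and chr3:107458899-107459148 (minus). Capitals mark matches to any of 4 motifs searched on both strands. The cyclic AMP response element was searched as TGACGTCA, and the EGR element, which can overlap a GC box, as GCGNGGGCG. The GC box was searched as GGGCGG in all windows. For the TATA box the letters were TATAAA.
Kcnj12: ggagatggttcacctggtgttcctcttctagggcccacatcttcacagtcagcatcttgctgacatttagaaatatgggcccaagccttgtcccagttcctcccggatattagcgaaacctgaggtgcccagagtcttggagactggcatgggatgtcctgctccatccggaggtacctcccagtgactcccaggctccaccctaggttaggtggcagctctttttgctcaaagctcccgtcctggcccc
Kcnc4: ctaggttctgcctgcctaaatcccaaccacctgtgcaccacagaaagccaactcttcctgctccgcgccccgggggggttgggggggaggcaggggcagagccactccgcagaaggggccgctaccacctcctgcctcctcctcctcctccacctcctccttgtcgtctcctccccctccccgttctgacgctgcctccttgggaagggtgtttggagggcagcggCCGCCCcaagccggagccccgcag
Kcnc4 held 1 GC box, on the opposite strand, and Kcnj12 held none of the 4 motifs. Over the 72 windows that RefSeq gives for 53 of the members, 48.6% held a GC box, 4.17% an EGR element (Kcng3, Kcnk2 and Kcnt2), 2.78% a TATA box (Kcnj9 and Kcnj16) and none a cyclic AMP response element, against 32.7, 4.70, 12.4 and 1.55% of all 32851 windows. A match is only a match of letters.

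The second comparison was age in standard cages, 24mSC against 5mSC. Kcnj12, Kcnh6, Kcnc4, Kcnj16 and Kcnt1 were the members with the smallest p, all higher in 24mSC, and Kcnt1, Kcnh6 and Kcnj16 were higher in every 24mSC library than in any 5mSC library. These 3 of 75 members compare with 541 of 16692 genes (3.24%, 1.68% higher) whose groups do not overlap. None of the 75 passed by edgeR on 20 libraries, while 134 of 16692 genes did (0.803%). At an unadjusted p under 0.05 there were 18 members, 17 higher and 1 lower, against 20.5% of all genes, 8.72% higher and 11.7% lower. The median log2 fold change was 0.13 over members and -0.01 over all genes.

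The call depended on the test and on single libraries. DESeq2 called 5 members, Kcnj12 (adjusted p = 0.00564), Kcnh6 (0.0184), Kcnc4 (0.0211), Kcnj16 (0.0213) and Kcnt1 (0.0316), among 759 called genes (4.55%), and voom with sample quality weights called Kcnj12 alone, among 306 genes (1.83%). In edgeR, 8 members passed without 5mSC replicate 2, the 5 above with Kcnb2, Kcnj9 and Kcnj10, where 6.67% of all genes did, and 3 (Kcnj12, Kcnh6 and Kcnt1) passed without 5mSC replicate 3, where 3.58% did. With choroid plexus markers as a covariate 2 members passed (1.42% of genes), and with a filter of 1 CPM in at least 5 libraries 1 did (1.05%). In the fit of 18 libraries without 5mSC replicates 1 and 3 none passed, against 2.14% of genes, and 17 members were at an unadjusted p under 0.05, 11 higher and 6 lower, against 19.9% of genes, 9.82% higher and 10.1% lower. The median over members was 0.07.

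Kcnt1, a sodium-activated channel behind slow after-hyperpolarisation, had 84.0, 93.1, 94.3, 84.3 and 79.5 CPM in 24mSC, against 48.2, 78.9, 71.2, 51.4 and 48.1 CPM in 5mSC. The groups did not overlap, though replicate 2 of 5mSC came close to the lowest 24mSC library. The log2 fold change was 0.56 ± 0.16 (SE; adjusted p = 0.0794) and 0.56 in the fit of 18 libraries (adjusted p = 0.0934). Kcnt1 (ENSMUSG00000058740) lies at chr2:25863734-25918273 on the plus strand.

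Kcnj12 had 8.36, 8.32, 7.20, 7.78 and 6.81 CPM in 24mSC, against 4.46, 7.01, 2.96, 4.68 and 3.85 CPM in 5mSC. The groups overlapped through 5mSC replicate 2. Its log2 fold change was 0.73 ± 0.18 (SE; adjusted p = 0.0521), and 0.60 without 5mSC replicates 1 and 3. Kcnh6, a channel of the ether-a-go-go-related group, had 2.65, 2.17, 3.13, 2.27 and 2.73 CPM in 24mSC, against 1.73, 1.83, 0.877, 1.72 and 1.13 CPM in 5mSC, with an estimate of 0.81 ± 0.21 on the log2 scale (SE; adjusted p = 0.0634), and 0.76 without 5mSC replicates 1 and 3. Kcnj16 had 34.3, 42.0, 38.6, 30.0 and 36.1 CPM in 24mSC, against 21.7, 29.1, 20.5, 27.3 and 14.8 CPM in 5mSC (0.67 ± 0.19, adjusted p = 0.0714; 0.62 without those libraries), and Kcnc4 averaged 95.3 ± 6.49 CPM in 24mSC and 66.9 ± 15.4 CPM in 5mSC (0.51 ± 0.14, adjusted p = 0.0701; 0.47 without them). The neocortex markers had sums of 390 to 448 CPM in 24mSC, against 292 to 427 CPM in 5mSC, 6 of 8 with a positive log2 fold change, and with them as a covariate the log2 fold change was 0.28 for Kcnj12, 0.18 for Kcnc4, 0.26 for Kcnt1, 0.51 for Kcnj16 and 0.55 for Kcnh6.

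Several abundant channel genes had positive values that were near or below 0 without 5mSC replicates 1 and 3. These libraries were set apart by low levels of the members, so such a shift is partly fixed by the choice. Kcna1, an axonal channel at the juxtaparanode, had 77.3, 61.9, 61.9, 73.4 and 75.9 CPM in 24mSC, against 20.98, 68.7, 26.95, 75.7 and 68.6 CPM in 5mSC, where replicates 1 and 3 were the low ones, and its log2 fold change was 0.42 in the fit of 20 libraries and -0.02 in that of 18. Kcnma1 had 24.5 and 40.98 CPM in these 2 libraries and 90.6 to 112 CPM in the remaining 3 of the group, and its log2 fold change was 0.40 with 20 libraries and -0.05 with 18. The sign differed between these fits in 21 of 75 members, none of them at an unadjusted p under 0.05 in the fit of 20. Kcna2, the partner of Kcna1 at the axon, had a log2 fold change of 0.33 in the fit of 20 libraries and 0.06 in that of 18. All 6 Kcna members were positive in the first fit, with a median of 0.32, and 4 of 6 in the second, with a median of 0.09. The Kcnj family kept its median, 0.25 in the first fit and 0.26 in the second, with 11 and 10 of 12 members positive. So did Kcnk, with 0.16 in both fits and 9 and 8 of 10 members positive. The Kcnt median was 0.22 in both, but it lies between 2 members of opposite sign (0.56 and -0.12 with 20 libraries). The Kcnd median was 0.08 in the first fit and 0.18 in the second.

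**Figure D5:**
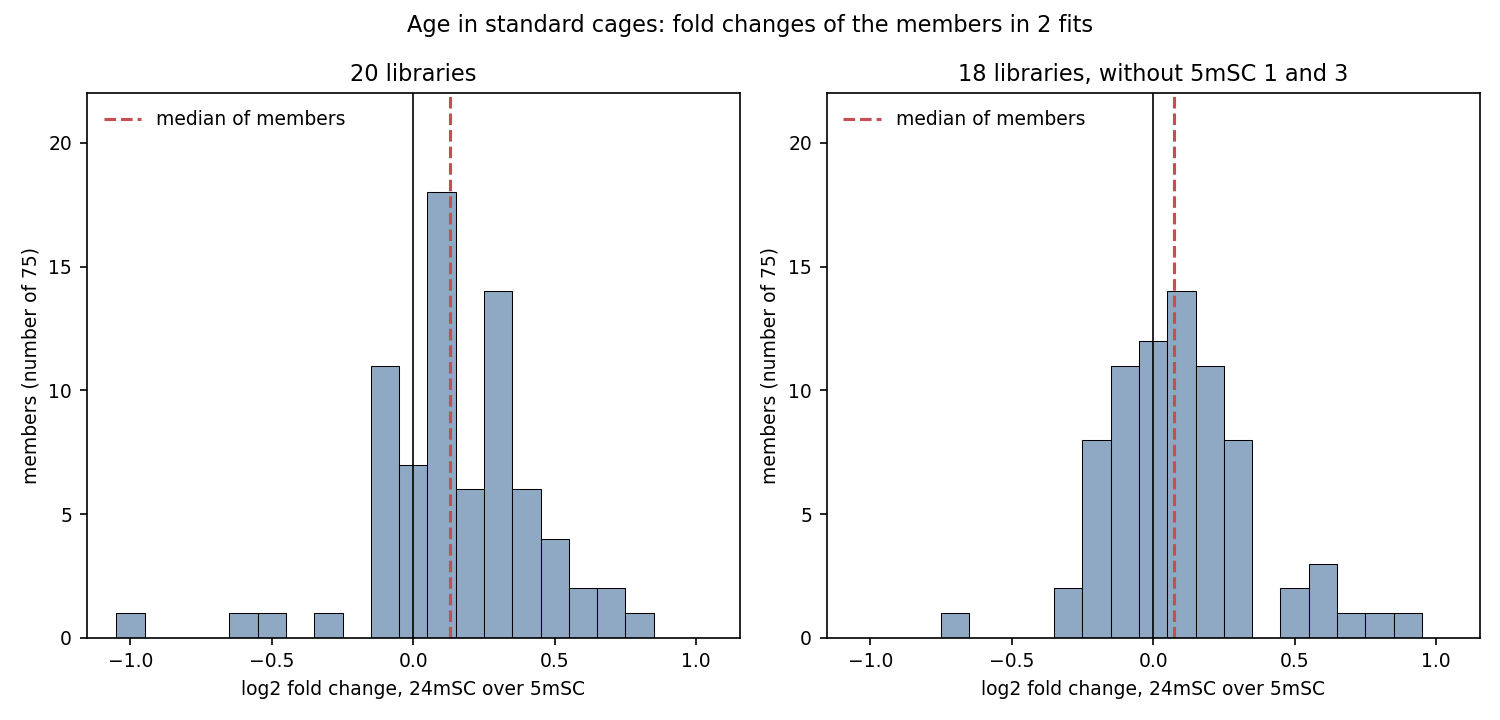
Log2 fold changes of the 75 tested members, 24mSC over 5mSC, in the edgeR fit of all 20 libraries (left) and of 18 libraries without 5mSC replicates 1 and 3 (right). Bars count members in bins of 0.1, the solid line marks 0 and the dashed line the median, which is 0.13 on the left and 0.07 on the right.

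Kcnrg, a cytoplasmic protein that hinders assembly of Kcna channels, was the only member lower in 24mSC at an unadjusted p under 0.05, with a log2 fold change of -0.97 ± 0.35 (adjusted p = 0.137). It had 0.459, 0.310, 0.448, 0.594 and 0.815 CPM in 24mSC, against 0.540, 1.16, 2.41, 0.860 and 0.657 CPM in 5mSC, the highest being replicate 3, and the estimate was -0.71 without replicates 1 and 3.

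Age in enriched cages, 24mEE against 5mEE, compares groups that do not enter the comparison above. No member passed by edgeR on 20 libraries, where 18 of 16692 genes did (0.108%), by DESeq2 (0.234% of genes), by voom (0.971%) or in the fit of 18 libraries (0.572%). At an unadjusted p under 0.05 there was 1 member in edgeR, Kcnj5, which was lower, against 4.61% of all genes, 1.9% lower. DESeq2 had 0 members at that p, against 814 of 16692 genes, and voom had 7, against 2173 of 16692 genes. No member had groups without overlap, where 2.76% of genes did. The median over members was -0.02. Among the members with the smallest p were Kcnj5 (-0.76 ± 0.36), Kcng4, a silent subunit (-0.27 ± 0.14), and Kcnn3 (-0.26 ± 0.15), all with an adjusted p of 0.9997. Kcnj12 averaged 4.49 ± 0.63 CPM in 24mEE and 5.07 ± 1.04 CPM in 5mEE, and Kcnc4 68.5 ± 10.8 CPM in 24mEE and 79.8 ± 12.01 CPM in 5mEE (SD, n = 5 each), differences within the spread between libraries.

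Over both housings, 10 libraries of 24 months against 10 of 5 months, Kcnt1 had the smallest p, at 0.42 ± 0.11 on the log2 scale (SE; adjusted p = 0.0798 by edgeR on 20 libraries). It had 52.8, 84.9, 69.5, 55.9 and 78.5 CPM in 24mEE, against 39.5, 69.5, 63.9, 54.9 and 54.0 CPM in 5mEE, which overlapped, with a log2 fold change of 0.28 ± 0.16 within enriched cages and 0.56 within standard cages. None of the 75 members passed, against 198 of 16692 genes (1.19%), and 5 were at an unadjusted p under 0.05, all higher (Kcnt1, Kcnh6, Kcns1, Kcnk9 and Kcnj12), against 14.9% of all genes, 6.81% higher. In the fit of 18 libraries without 5mSC replicates 1 and 3, 9 members were at that p, 6 higher and 3 lower. There, 3733 of 16947 genes were, 1885 higher and 1848 lower. The median over members was 0.07 with 20 libraries and 0.01 with 18. No member had ages without overlap, where 0.228% of genes did. Kcnt1 passed in DESeq2 (adjusted p = 0.0231; 3.19% of genes called), in voom with sample quality weights (0.0348; 5.94%), in the fit of 18 libraries (0.0404; 5.71%) and in edgeR without 5mSC replicate 2 (0.0258; 1.96% of genes) or 3 (0.0238; 5.37%). In 24mEE, 5mEE and 5mSC the highest Kcnt1 library was replicate 2, also the highest in neocortex markers, while in 24mSC Kcnt1 was highest in replicate 3 and the markers in replicate 4. With these markers as a covariate its value was 0.28, unadjusted p = 0.022. Kcns1, a silent partner of Kcnb channels, had 0.37 ± 0.16, and Kcnk9, an acid-sensitive leak channel, 0.36 ± 0.16, which was 0.22 without 5mSC replicates 1 and 3. Kcnk9 was lowest in 5mSC replicate 1, at 3.64 CPM, against 10.2 to 14.1 CPM in the remaining 4 of its group.

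Enrichment at 5 months, 5mEE against 5mSC, gave no member that passed in edgeR, DESeq2 or voom, where edgeR and voom called no gene (0%) and DESeq2 0.18% of genes. At an unadjusted p under 0.05 there were 11 members in edgeR, 10 higher and 1 lower, against 16.5% of all genes, 6.52% higher and 10% lower. DESeq2 had 13 members at that p, against 2769 of 16692 genes, and voom had 1, against 917 of 16692 genes. In edgeR without 5mSC replicates 1 and 3 there were 0 of 75, against 6.72% of all genes. The median over members was 0.15 in the first fit and 0.07 in the second. Kcnh1, an ether-a-go-go channel, was the only member whose groups did not overlap, against 1.62% of all genes, 0.743% higher. It had 78.9, 62.8, 67.0, 63.0 and 64.1 CPM in 5mEE, against 45.9, 60.2, 30.3, 61.4 and 53.3 CPM in 5mSC. The log2 fold change was 0.41 ± 0.14 (SE; adjusted p = 0.225), and 0.20 without replicates 1 and 3. The other members with the smallest p were Kcnc1 (0.29 ± 0.10), a delayed rectifier of fast-spiking interneurons, Kcnd3 (0.31 ± 0.11), an A-type subunit, and Kcnj10 (0.42 ± 0.16), whose values were 0.14, 0.21 and 0.17 in the fit of 18 libraries. Kcne4, an inhibitory accessory subunit, was the 1 lower member, with -0.71 in the first fit and -0.20 in the second.

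Whether enrichment acted differently at the 2 ages was tested by the age by environment interaction, the log2 fold change of 24mEE over 24mSC minus that of 5mEE over 5mSC. None of the 75 members and none of the 16692 genes (0%) passed in edgeR, in DESeq2 no member and 6 genes did (0.0359%), and in the fit of 18 libraries no member and 1 gene (0.0059%). At an unadjusted p under 0.05 there were 13 members, 2 higher and 11 lower, against 8% of all genes, 4.4% higher and 3.61% lower. DESeq2 and voom each had 12 members at that p, against 1352 and 1592 of 16692 genes. The smallest p values belonged to Kcnc4 (-0.73 ± 0.20, adjusted p = 0.613), Kcnj12 (-0.90 ± 0.25) and Kcnj16 (-0.84 ± 0.26). Each had its highest group mean in 24mSC. For Kcnc4 the means were 68.5 CPM in 24mEE, 95.3 in 24mSC, 79.8 in 5mEE and 66.9 CPM in 5mSC. With the neocortex markers as a covariate the values were -0.38 for Kcnc4, -0.41 for Kcnj12 and -0.67 for Kcnj16. The median over members was -0.18 with 20 libraries and -0.09 with 18. The comparisons above share groups with each other, so that a high 24mSC value enters both the age and the enrichment contrast, and their values are not independent of each other.

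Other members with a known place in hippocampal cells are given by their values. The small-conductance channels Kcnn1 and Kcnn2, of which Kcnn2 carries the apamin-sensitive current of CA1 pyramidal cells, had log2 fold changes of -0.16 ± 0.14 and 0.09 ± 0.09 in 24mEE against 24mSC, and 0.14 ± 0.14 and -0.15 ± 0.09 in 24mSC against 5mSC. The leak channels Kcnk1, Kcnk2 (a mechanically gated channel) and Kcnk13 (a channel of microglia) had 0.13 ± 0.13, -0.03 ± 0.12 and -0.23 ± 0.23 in 24mEE against 24mSC. The beta subunit of neuronal Kcnma1 channels, Kcnmb4, averaged 10.4 ± 0.78 CPM in 24mEE, 10.3 ± 1.25 in 24mSC, 10.6 ± 1.04 in 5mEE and 11.3 ± 1.798 CPM in 5mSC, its groups overlapping throughout, and Kcnt2, the other sodium-activated subunit, averaged 35.4 ± 3.24 CPM in 24mEE, 33.0 ± 2.03 in 24mSC, 37.8 ± 3.23 in 5mEE and 36.1 ± 7.28 CPM in 5mSC. Kcne3, the 1 member removed by the expression filter of the test, had 12, 5, 7, 5 and 6 counts in 24mEE, 4, 6, 14, 7 and 8 in 24mSC, 3, 3, 10, 4 and 7 in 5mEE and 11, 3, 0, 8 and 11 counts in 5mSC.

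Genes that work with potassium channels are given by counts. Of 6 Kcnip and Dpp partners of Kcnd channels none passed in 24mEE against 24mSC or 24mSC against 5mSC in the fit of 20 libraries, 3 were at an unadjusted p under 0.05 in each (6.21 and 20.5% of all genes), and the medians were 0.07 and 0.09. Kcnip3, a calcium sensor that binds Kcnd subunits, had a log2 fold change of -0.35 ± 0.12 in 24mEE against 24mSC (adjusted p = 0.543) and 0.49 ± 0.12 in 24mSC against 5mSC (adjusted p = 0.0551, and 0.0442 with 18 libraries). Kcnip2, a sensor of the same kind, had -0.41 ± 0.10 in 24mSC against 5mSC (adjusted p = 0.0543), and Dpp10, an accessory subunit of the same channels, had -0.77 ± 0.22 in 24mEE against 24mSC (adjusted p = 0.357). Of 16 anchoring and scaffold genes of Kcna, Kcnb and Kcnq channels, 7 were higher at an unadjusted p under 0.05 in 24mSC against 5mSC and none in 24mEE against 24mSC, where 8.72 and 2.22% of all genes were, with a median of 0.18 in 24mSC against 5mSC that was 0.04 without 5mSC replicates 1 and 3. Of 5 genes of the hyperpolarisation-activated channels, 11 of sodium pumps and potassium-chloride transporters, 2 of sulfonylurea receptors, 18 of voltage-gated calcium channels and 8 tested of voltage-gated sodium channels, none passed in either comparison. Their medians in 24mEE against 24mSC were -0.06, -0.07, -0.07, 0.09 and 0.02 on the log2 scale. At an unadjusted p under 0.05 there were 4 calcium and 1 sodium channel genes, all higher (2.22% of all genes), and none in the other 3 lists. In 24mSC against 5mSC the medians were 0.18, 0.19, 0.14, 0.07 and 0.18. Without 5mSC replicates 1 and 3 they were 0.12, 0.12, 0.14, -0.01 and 0.03. With 20 libraries 2, 2, 0, 4 and 2 genes of these lists were higher at that p (8.72% of all genes), and none was lower.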

How the data were processed

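Total RNA of each hippocampus was made into TruSeq v2 libraries and sequenced as single-end reads. Per the labels the authors used bcl2fastq 1.8.2, STAR 2.4.1d on GRCm38 and featureCounts 1.4.6-p4, and they deposited raw counts per Ensembl gene. The study states that these deposited counts were not the ones used in its own analysis. The deposited RPKM table was not used, since its sums follow the library totals. Gene symbols came from GENCODE M21 (98.9% of identifiers matched). The members and the lists were chosen with earlier results of these data known.

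Counts were tested with edgeR 4.0.16 (R 4.3.3; filterByExpr, which kept 16692 genes, TMM, quasi-likelihood F test) in 1 fit of 20 libraries with group as the only term, and p values were adjusted by Benjamini-Hochberg over all genes tested. Calls are at an adjusted p under 0.05. The labels name no sequencing run, which the study's model included, so run cannot be told apart from group here. Alternatives were DESeq2 1.42.0, limma 3.58.1 (voom with sample quality weights), other filters and size factors, marker levels as covariates, each library left out, 5mSC replicates 1 and 3 left out, and only the groups compared. The edgeR step was tested on simulated data. Named members were those with the 4 smallest p in a comparison, the highest of each family, and a list of subunits with a known place in the hippocampus; other members named (Kcna6, Kcnb2, Kcnj4, Kcne4, Kcng1, those at the count threshold and those with shared sequence) were chosen after their values were seen. Replicate numbers follow the order of deposition. The p values weigh a difference between groups against the spread between libraries of separate mice, estimated over all groups of a fit. In edgeR the common coefficient of variation was 17.4% with 20 libraries and 9.88% without 5mSC replicates 1 and 3. It was 9.40% in the fit of 24mEE and 24mSC alone. Counts and medians cover all members, of which 4 are not reported by name here.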

Additional observations from a re-analysis of the deposited data

Results flagged for a closer look

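The values of 51 named genes were searched in each group of 5 libraries for a highest or lowest library whose gap to the next exceeded 0.71 of the group's range, Dixon's limit for 5 values. Of 204 groups looked at, 17 met it, where chance gives about 1 in 20, or 10.2.

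In 5mSC replicate 3, the library rich in mitochondrial ribosomal RNA, 4 values stood apart. Kcne2, an accessory subunit of choroid plexus epithelium that did not reach the count threshold, was high at 4.71 CPM, and Kcnj13, an inward rectifier of the same epithelium, at 2.19 CPM, and the sum of choroid plexus markers was also the highest of all libraries there, 606 CPM. Kcnk1 was low at 44.9 CPM, against 82.4 to 86.0 CPM in replicates 1, 2, 4 and 5, and Kcnn1 at 7.67 CPM, against 16.0 to 18.3 CPM.

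In 24mEE replicate 2, Kcnj9 (109 CPM) and Kcnh6 (2.58 CPM) were high and Kcns2 (35.9 CPM) and Kcng2 (15.9 CPM) low, in the library with the highest neocortex markers of its group. In 5mEE replicate 1, Kcnh1 (78.9 CPM) and Kcnv1 (45.9 CPM) were high and Kcnh7 (42.6 CPM, against 84.8 to 96.7 CPM) low. In 24mSC replicate 5, Kcnn3 (43.8 CPM) and Kcnv1 (45.4 CPM) were high. The remaining values apart were Kcnj8 in 24mSC replicate 1 (6.22 CPM), Kcnk1 in 24mSC replicate 4 (83.7 CPM), Kcnj11 in 24mEE replicate 1 (11.6 CPM, low) and Kcnu1 in 5mEE replicate 4 (4.31 CPM).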

How the results depend on the processing

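No member passed in the edgeR fit of 20 libraries in any comparison. In 24mSC against 5mSC, DESeq2 called 5 members (4.55% of all genes) and the choroid plexus covariate 2 (1.42%). A filter of 1 CPM in 5 libraries (1.05%) and voom with sample quality weights (1.83%) called 1 each. Leaving out 1 library gave 0 to 8, the 8 without 5mSC replicate 2 (6.67%). Over both housings, DESeq2 (3.19% of all genes), voom (5.94%) and the fit without 5mSC replicates 1 and 3 (5.71%) called 1 member each. Leaving out 1 library gave 0 to 2, the 2 without 5mSC replicate 3 (5.37%). In 24mEE against 24mSC, voom called 6 members (Kcnj12, Kcns2, Kcnc4, Kcnn3 and Kcna6 among them), where it called 2.27% of all genes. The fit of the 2 groups alone called 3 (1.17%). DESeq2 (0.186%) and the fit without 5mSC replicates 1 and 3 (0.059%) called 1 each, and leaving out 1 library gave 0. The causes were not tested. The other 3 comparisons gave 0 under every alternative run, leave-one-out fits included. Of the alternative values of 25 results with small p, 685 kept their direction and side of the threshold, 25 came to pass it and none changed direction. Among all 75 members tested in 24mSC against 5mSC, the sign of 21 differed between the fits of 20 and 18 libraries, and the number of positive values was 58 with 20 and 45 with 18. With a threshold of 10 counts in at least 1 library there would be 85 members, and in all 20 libraries 66. No paired analysis was possible because replicate numbers only follow the order of deposition. Members under 1 CPM, such as Kcnj5 and Kcnrg, rest on few reads, and how small a difference could be detected in them was not tested.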

Other observations

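Of the 14 Kcn genes that missed the count threshold, several had far more counts in 5mSC replicate 3 than in any other library. In that library Kcnv2, a silent subunit known from the retina, had 127 counts (13.9 CPM), Kcna7 and Kcnn4 had 104 counts each (11.4 CPM) and Kcnk16 had 61 counts (6.68 CPM), while their highest counts among the other 19 libraries were 4, 5, 13 and 1. Kcna10, Kcnj1 and Kcnk18 had 0 counts in it and at most 3 in any other library. Among members, 60 of 76 were below the mean of 5mSC replicates 2, 4 and 5 there, 12 of them by more than 1 on the log2 scale, and 6 were above it by more than 1, Kcnrg, Kcnj2, Kcnk5 and Kcnq1 being the highest. In 5mSC replicate 1 the 38 members with the longer exons had a median difference of -0.26 from the same mean and the 38 with the shorter exons one of 0.10 on the log2 scale, with 8 members lower by more than 1, Kcng3, Kcna3, Kcnma1, Kcnh5, Kcna1 and Kcnk9 being the lowest. These 8 had a median exon length of 4465.5 bp, against 4572 bp over all members. In 5mSC replicate 3 the median difference was -0.63 for the longer and -0.36 for the shorter exons.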
